A study of Mus musculus with 2 samples.

Results

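Retained-intron and nonsense-mediated decay transcripts are 2 annotated kinds of transcript that are not expected to yield the usual protein. Followed here are the transcripts that the reference annotation GENCODE M21 calls retained_intron or nonsense_mediated_decay (NMD), as far as the deposited tables list them as known models with at least 1 read. There were 3905 of them in either library, 3169 retained-intron and 736 NMD transcripts, among 25163 known transcripts of mouse genes, and they came from 2957 genes. The annotation holds 21848 retained-intron and 7186 NMD transcripts, so 14.5% and 10.2% of the annotated ones had a read. No measured value chose the members, other than the presence of a read.

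A retained-intron transcript keeps a stretch of intron that the coding transcripts of its gene remove, and such RNA often stays in the nucleus. NMD is a cytoplasmic decay pathway that removes mRNAs whose translation stops well upstream of an exon junction, because the junction still carries the exon junction complex that Upf and Smg proteins read. Many genes of splicing factors hold conserved exons or introns that lead into this pathway, and a long read can show such a transcript from end to end.

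Total RNA was sequenced as long reads, with spike-in RNAs added. It came from adrenal glands of male mice of the hybrid strain B6CASTF1/J aged 25 days, from The Jackson Laboratory, as 1 group of 2 libraries, called replicates 1 and 2. All mice share strain, sex and age, no allele or treatment is named, and no condition was compared. The labels name the same animal in both library descriptions and different animals in the tissue descriptions, so the spread between the libraries may be technical. A comparison of the libraries below compares these 2 libraries only.

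The tables gave 752432 reads in annotated mouse genes in replicate 1 and 1210671 in replicate 2, and levels are given in CPM, the reads of a transcript or gene scaled to 1000000 of those. All 6 adrenal cortex markers and all 5 chromaffin markers were present in both libraries, at 60920 and 24752 CPM and at 9412 and 7114 CPM in replicates 1 and 2. The 6 hepatocyte markers together had 5.32 CPM in replicate 1 and 43821 CPM in replicate 2, and the 6 skeletal muscle markers 2301 and 0.826 CPM. The part of these differences in the comparisons between the libraries was not tested, beyond the class shares given without genes of very different level.

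The sequences that set the members apart are short, and the first set shows where translation would stop. In each line the stop codon is in capitals, the letters run 5′ to 3′ and come from the GENCODE M21 transcript sequences, and the build is mm10. For Ddx5-208 the stop is the annotated one (chr11:106783939-106783968, minus strand). For the others it is the first stop in frame after the start codon of the gene's coding transcript with the most reads. They lie at chr4:134925469-134925498 on the plus strand (Rsrp1), chr1:58421062-58421091 on the minus strand (Clk1), chr17:80205159-80205188 on the minus strand (Srsf7), chr17:28329049-28329078 on the plus strand (Rpl10a) and chr14:55660149-55660178 on the minus strand (Mdp1). Each of these 6 stops lies inside an intron that the coding transcript removes.
Ddx5-208: agagggctaggtTAGtacaaactcgaattc
Rsrp1-204: accctttgccagTGAacacaaccctcctgg
Clk1-212: tcacacggggtaTGAgtgccttttaaacgt
Srsf7-207: agtgtttttctaTAAacttgaatgttaatt
Rpl10a-206: ttggcaccgctcTAAccccacccagccctc
Mdp1-202: cacaagagcaggTGAgactataagaggtat
In Ddx5, Clk1 and Mdp1 the stop falls in the first bases of the intron, so the frame closes almost at once after the last coding exon base.

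The next set shows exons that are in the NMD transcript and not in the leading coding transcript, from their first base to their stop codon in capitals. The exons have 66 bases in E2f6-204, 70 in Yaf2-202, 73 in Ccnl1-205 and 105 in Rbm7-204. The printed stretches lie at chr12:16813847-16813879 (plus strand), chr15:93317554-93317608, chr3:65955246-65955276 and chr9:48494364-48494387 (minus strand).
E2f6-204: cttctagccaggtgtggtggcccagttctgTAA
Yaf2-202: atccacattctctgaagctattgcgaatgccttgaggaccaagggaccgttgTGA
Ccnl1-205: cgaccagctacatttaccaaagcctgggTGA
Rbm7-204: tatttgaggcagagagccataTAG

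The last set gives the borders of kept introns, with the splice-site dinucleotides in capitals. Rsrp1 intron 3 of 4 (chr4:134925433-134926734, plus strand, 1302 bases) is kept in Rsrp1-204, the member with the most reads, and its 2 borders are shown with 6 exon bases on either side. Mdp1 intron 2 of 5 (chr14:55660099-55660167, minus strand) has 69 bases and is shown whole.
Rsrp1 5′ splice site: gtggagGTaagtgccttcaggaagct
Rsrp1 3′ splice site: ttaaaattctcttcctctttAGcattca
Mdp1 intron 2: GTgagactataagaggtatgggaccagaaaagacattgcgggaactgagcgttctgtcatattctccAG
Both introns have the usual GT at the start and AG at the end, although they were kept.

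**Figure D1:**
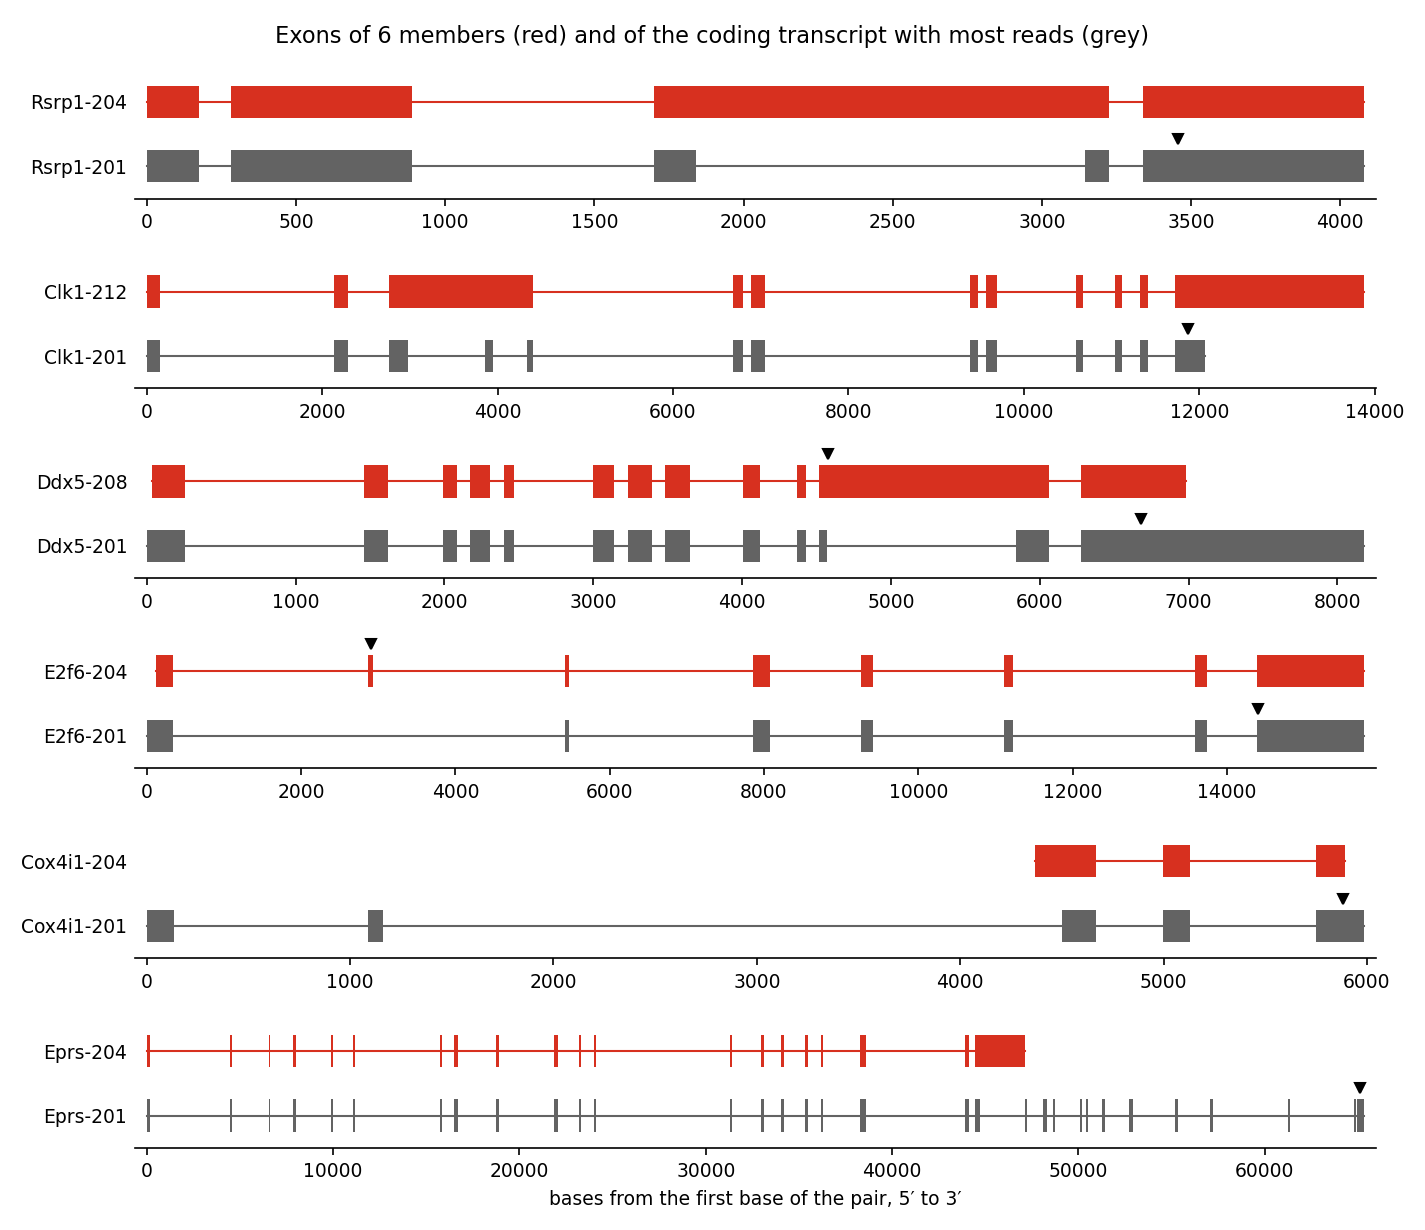
Exons of 6 members (red boxes) and of the coding transcript of the same gene with the most reads (grey boxes), with introns as lines; the horizontal axis is bases from the first base of each pair, and a black triangle marks an annotated stop codon. Rsrp1-204, Clk1-212 and Ddx5-208 keep introns between exons of the coding transcript, E2f6-204 has 1 extra exon, and Cox4i1-204 and Eprs-204 hold only a 3′ or a 5′ stretch of the coding junctions.

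Retained-intron transcripts held 6090 of 752432 gene reads in replicate 1 (0.809%, 95% Clopper-Pearson interval 0.789 to 0.830%) and 9864 of 1210671 in replicate 2 (0.815%, 0.799 to 0.831%). NMD transcripts held 2219 reads (0.295%, 0.283 to 0.307%) and 2444 reads (0.202%, 0.194 to 0.210%). The retained-intron share was thus nearly equal in the libraries, and the NMD share was lower in replicate 2. Known coding transcripts held 74.1% and 72.6%. Without the 809 genes whose level differed over 10-fold between the libraries, the shares were 0.815% and 1.01% for retained introns and 0.298% and 0.257% for NMD. Intervals and limits cover counting error only, because PCR copies cannot be told from separate molecules here.

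Members were thinly covered. Replicate 1 held 1702 retained-intron and 517 NMD transcripts, replicate 2 held 2484 and 564, and 1017 and 345 were in both. A single read stood behind 59.1% of the retained-intron transcripts of replicate 1 and 51.2% of those of replicate 2, behind 50.3% and 46.8% of the NMD transcripts, and behind 18.99% and 18.1% of the coding ones. Only 250 retained-intron and 80 NMD transcripts had 10 or more reads over both libraries. Thinned to the depth of replicate 1, replicate 2 would hold 1919 retained-intron and 444.8 NMD transcripts.

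What the reads of a member can show depends on its junctions. Of the retained-intron reads, 60.4% in replicate 1 and 62.2% in replicate 2 belonged to members whose whole junction chain is an unbroken stretch of the chain of a coding transcript. Such a member differs from the coding transcript only where its annotated first or last exon runs into an intron. The stretch was at the 3′ end of the coding chain for 46.9% and 38.5% of reads, at its 5′ end for 12.3% and 22.2%, and inside it for 1.28% and 1.40%. None of the 24448 and 36085 multi-exon models that the authors called incomplete splice matches (ISM, a partial known chain) had the chain of an annotated transcript. A read with such a chain is therefore in the known class under the member's name, wherever it begins or ends. The deposited files give no ends of single reads, so how many of these reads entered the intron is not known here. The same holds for members of 1 exon, which have no junction.

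The members whose junctions do set them apart held fewer retained-intron reads. Another 24.1% and 17.0% of retained-intron reads had only junctions of coding transcripts but in a combination that no coding transcript has, as when the intron between 2 coding exons is kept. Members with at least 1 junction of their own held 3.37% and 2.61%, and single-exon members 10.7% and 16.1%. NMD transcripts were built the other way round. Of their reads, 69.9% and 76.7% belonged to members with a junction of their own, 26.9% and 21.2% to new combinations of coding junctions, and 0.315% and 0.532% to stretches of a coding chain. Counting only members whose junctions differ from the coding ones, retained-intron transcripts held 0.222% and 0.160% of gene reads and NMD transcripts 0.285% and 0.198%.

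**Figure D2:**
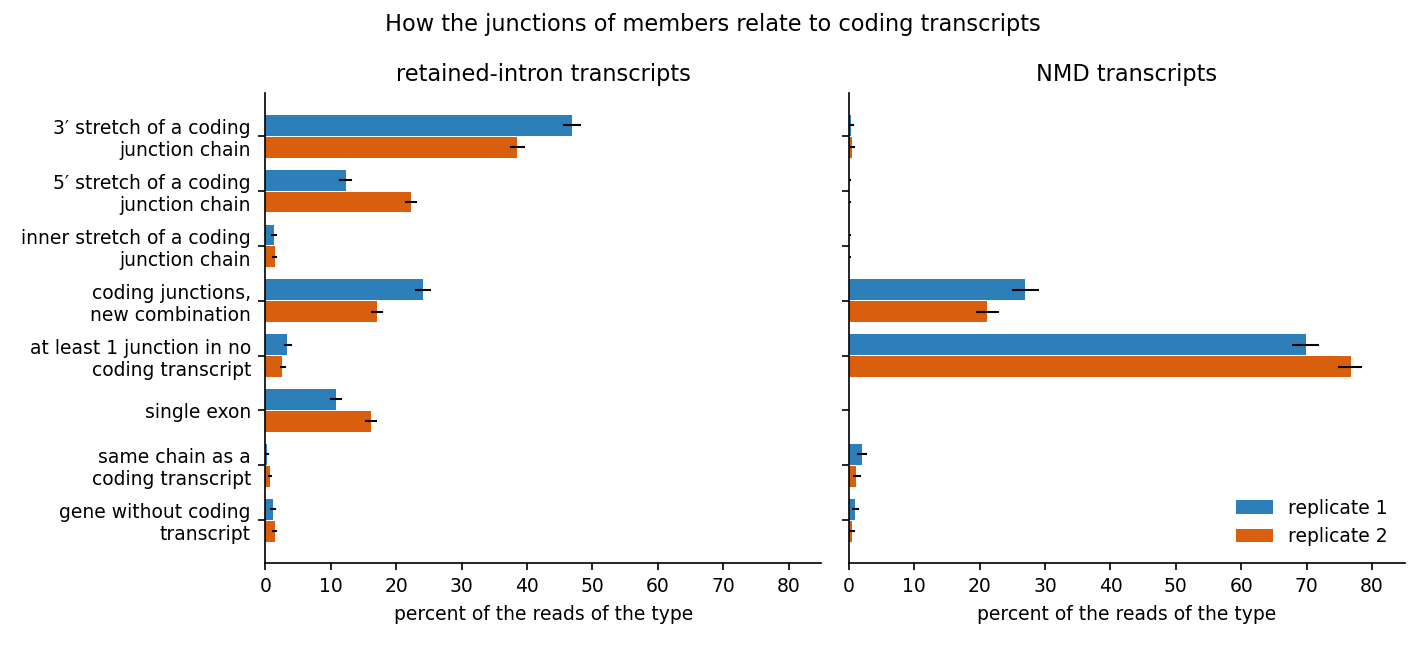
Percent of the reads of each type (horizontal axis) in members grouped by how their junctions relate to those of coding transcripts of the gene; blue and orange bars are replicates 1 and 2 and black lines are 95% Clopper-Pearson intervals. Stretches of a coding chain lead among retained-intron transcripts, at 46.9% and 38.5% for 3′ stretches, while junctions of their own lead among NMD transcripts, at 69.9% and 76.7%.

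In the 5749 genes that had 20 reads or more in both libraries, the same coding transcript led, that is had the most reads of all models, in both libraries in 4671 (81.2%). The same member led in both in 15 genes, 10 by a retained-intron and 5 by an NMD transcript. A member led in replicate 1 alone in 6 genes and in replicate 2 alone in 12. In 10 of the 15 genes the leading member has junctions that set it apart from the coding transcripts. The other 5, in Rpl5, Stau1, Fxyd1, Dlgap1 and Tssc4, are stretches of a coding chain or a single exon.

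Rsrp1, a gene for a protein rich in arginine and serine, gave the clearest case. Rsrp1-204 had 666 of 959 gene reads in replicate 1 (69.4%, 66.4 to 72.4%) and 828 of 1133 in replicate 2 (73.1%, 70.4 to 75.6%), while the fully spliced coding transcript Rsrp1-201 had 205 and 140 reads. The member was thus over 3 times as abundant as the spliced form in each library. Read from the start codon of Rsrp1-201, Rsrp1-204 meets a stop inside intron 3 after 248 residues, against 298 in the full protein, and the stop lies 1335 bases before the last junction. Its share did not pass the test between the libraries (Fisher's exact test, Benjamini-Hochberg adjusted p = 0.302).

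Clk1, Ccnl2, Ccnl1 and Rbmx were each led by a member in both libraries. Clk1-212 comes from the gene of a kinase that phosphorylates SR splicing factors and keeps introns 3 and 4 (871 and 387 bases). It had 22 of 38 reads (57.9%) and 16 of 35 reads (45.7%), and the spliced Clk1-201 had 5 and 8. Ccnl2-205, from the gene of cyclin L2, which is linked to splicing, had 100 of 283 reads (35.3%) and 106 of 314 (33.8%) and has a junction of its own. Ccnl1-205, the NMD transcript of the related cyclin L1, had 6 of 32 and 6 of 25. Rbmx-205, from the gene of an RNA-binding protein of the hnRNP G family, had 14 of 30 and 9 of 26. None of these 4 shares passed the test between the libraries.

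Among the other leading NMD transcripts, Cyth2-203 had 39 of 82 reads (47.6%) and 50 of 109 (45.9%). Cyth2 encodes an exchange factor for ARF GTPases. E2f6-204, from the gene of a repressor of the E2F family, had 35 of 69 (50.7%) and 34 of 84 (40.5%). Its extra exon of 66 bases, printed above, would end translation after 46 residues, against 272 in the protein of E2f6-201. Ppcdc-213, from the gene of a decarboxylase of coenzyme A synthesis, had 10 of 23 and 10 of 27. Each of these 3 held over 35% of its gene's reads in both libraries.

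Rgs3, Tssc4, Dlgap1 and Apbb3 were also led by a retained-intron transcript. Rgs3-207, from the gene of a regulator of G protein signalling, had 17 of 37 reads (45.9%) and 22 of 60 (36.7%) and has a junction of its own. Tssc4-207, a single exon, had 11 of 35 and 25 of 59, and Dlgap1-220, from the gene of a postsynaptic scaffold protein, 6 of 33 and 4 of 25. Apbb3-204 had 7 of 29 and 5 of 30. None of these 4 passed the test or had more than 25 reads in a library.

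**Figure D3:**
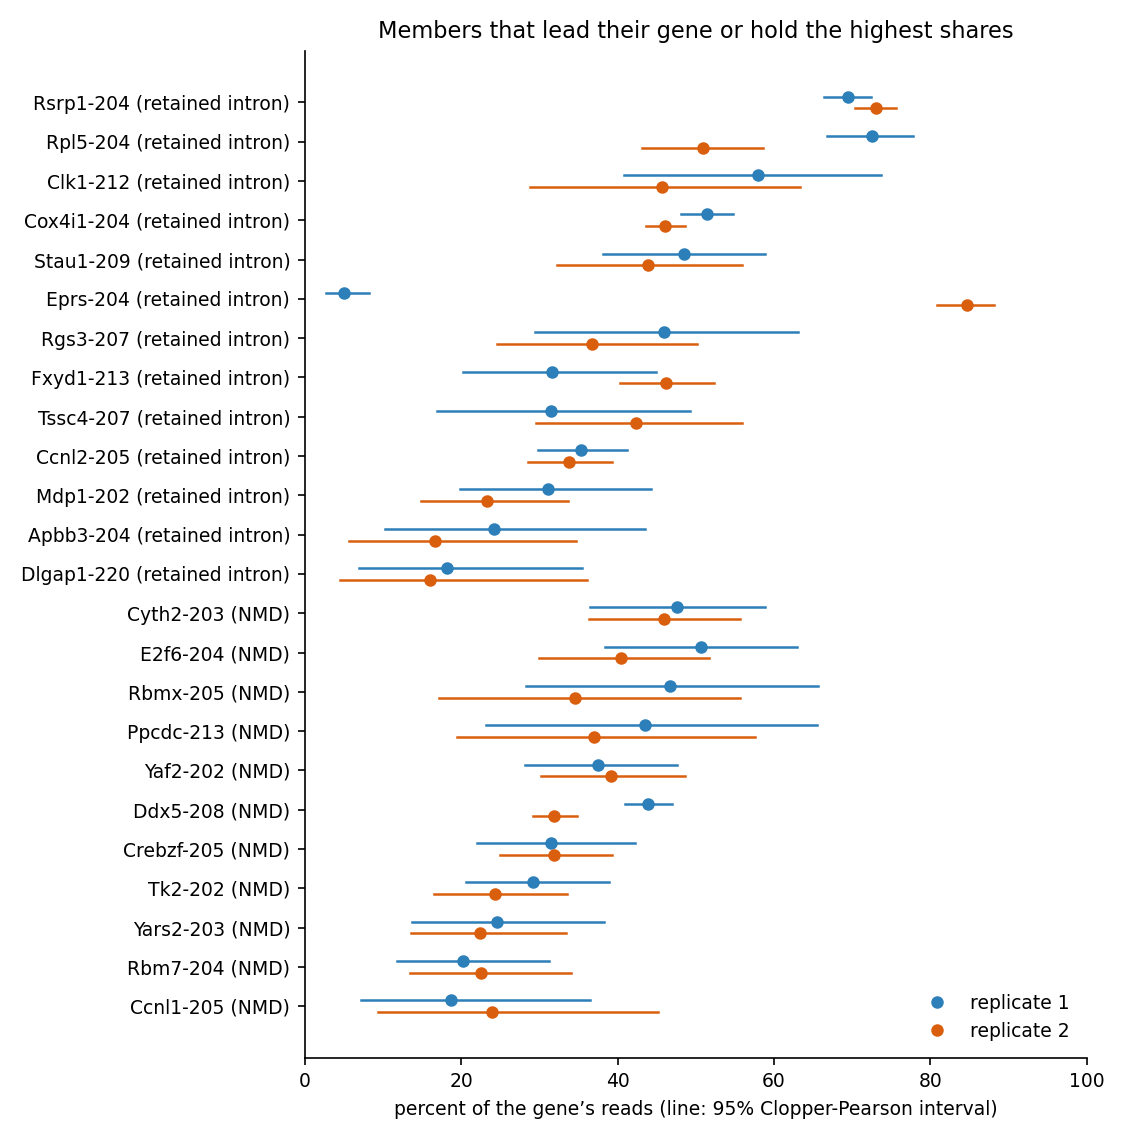
Percent of the gene's reads (horizontal axis) held by members that lead their gene in both libraries or have the highest mean share of their type; points are replicates 1 (blue) and 2 (orange) and lines are 95% Clopper-Pearson intervals. Rsrp1-204 is high in both libraries at 69.4% and 73.1%, and Eprs-204 is the one member at opposite ends, at 5% and 84.7%.

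Beyond the leading transcript, retained-intron transcripts held at least 10% of gene reads in both libraries in 82 of the 5749 genes and NMD transcripts in 41. With both types together it was 134 genes at 10%, 33 at 25% and 5 at 50%. Of the 5749 genes, 4027 have an annotated member, and 2151 of those had no member read in either library. Pgp-202, from the gene of phosphoglycolate phosphatase, is 1 exon that runs through the gene's only intron of 92 bases. It had 104 of 398 reads and 92 of 352, which is 26.1% in each library. Mdp1-202, which keeps the intron of 69 bases printed above, had 19 of 61 reads (31.1%) and 20 of 86 (23.3%).

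The kept introns were short, as annotated. The 1613 introns of coding transcripts that lie wholly inside an exon of a retained-intron member with reads had a median length of 282 bases (quartiles 120 and 703), a median GC content of 52.2%, and GT and AG borders in 97.7%. The 7425 introns kept by annotated retained-intron transcripts without a read had a median of 267 bases and 51.3% GC, so detection did not go with a clearly different length or GC. All coding introns of the genes with such members had a median of 646 bases, and those of the 5749 genes 1239. Of the 3169 retained-intron members, 1040 cover a whole coding intron. The others end or begin inside one, or differ elsewhere.

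Retained-intron transcripts have no annotated reading frame, so the frame of the coding transcript was carried over where it could be. Of 336 members with only coding junctions in a new combination and a coding transcript with reads, 293 hold its start codon and a stop in frame. In 268 of these 293 the first stop lies inside the kept intron, and in all 268 it lies more than 50 bases before the last junction, the distance usually given for NMD. These 268 members held 1333 and 1529 reads, of which Rsrp1-204 gave 666 and 828. Rpl10a-206 stops after 58 of 217 residues, Mdp1-202 after 33 of 164, Clk1-212 after 130 of 483 and Srsf7-207 after 157 of 238. By this measure the 268 carry the same feature as the transcripts annotated as NMD, of which 734 of 736 have a stop more than 50 bases before the last junction, with a median of 369 bases. Among 17381 known coding transcripts with reads 62 (0.357%) have it. These distances come from the annotation, not from the reads, and 6413 of 6450 annotated NMD transcripts without a read have the feature too. The likeness is thus a description of annotated structure.

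NMD transcripts were also compared with the coding transcript of their gene that had the most reads, which was possible for 709. They differed most often by an alternative splice site (341 of 709, 39.7% and 46.1% of the reads), then by a skipped exon (197, 14.6% and 15.6%) and by an included exon (167, 19.8% and 17.0%). The first of these classes also takes in junctions to an alternative first or last exon. A kept intron was rare, in 40 transcripts, but held 23.8% and 17.6% of the reads, most of them from Ddx5-208. An intron cut out of an exon of the coding transcript was found in 26 (5.45% and 6.67%), in 22 of them after the coding stop. The start codon was that of the coding transcript in 618 and the stop lay before the coding stop in 656. Of 131 transcripts whose only difference is 1 included exon, 104 have their stop inside it, and 39 of these exons have a length that is a multiple of 3. Their median length was 105 bases.

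Ddx5-208 carried the most NMD reads. Ddx5 encodes a DEAD-box RNA helicase that acts in splicing and transcription, and the member keeps intron 11 of 12 (chr11:106782694-106783958, minus strand, 1265 bases). It had 465 of 1059 reads in replicate 1 (43.9%, 40.9 to 47.0%) and 353 of 1106 in replicate 2 (31.9%, 29.2 to 34.8%), against 332 and 465 for the coding Ddx5-201. The member was ahead of the coding transcript in replicate 1 and behind it in replicate 2. Its stop comes after 406 of 615 residues. The share was lower in replicate 2, with a difference of -11.99 percentage points (Fisher's exact test, adjusted p = 5.58e-07).

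Other NMD transcripts with many reads showed each of these structures. Chpt1-207, from the gene of the enzyme that joins choline to diacylglycerol, uses another splice site and had 139 of 729 reads (19.1%) and 216 of 936 (23.1%). Its stop after 398 residues is close to that of Chpt1-203 with 406 and lies 72 bases before the last junction. Yaf2-202 had 39 of 104 reads (37.5%) and 45 of 115 (39.1%). Yaf2 encodes a partner of the RING1 proteins of Polycomb complexes, and the extra exon of 70 bases printed above would end its protein after 68 of 179 residues. Tk2-202, from the gene of mitochondrial thymidine kinase, lacks an exon of 74 bases and had 30 of 103 (29.1%) and 26 of 107 (24.3%). Zfand5-204 lacks one of 104 bases and had 22 of 244 and 19 of 308. The shares of these 4 lay within 5 percentage points between the libraries.

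Crebzf-205, from the gene of a bZIP transcription factor, had 28 of 89 reads (31.5%) and 56 of 176 (31.8%). It cuts an intron out of the exon of Crebzf-201 after the coding stop. Its frame ends at that stop but begins at another start codon, with 125 residues against 358. Between the stop and the last junction lie 286 bases. Crebzf-203, with 11 and 22 reads, and Crebzf-207, with 13 and 12, also cut out an intron there but have other stops. Pcnp, the gene of a nuclear protein, had 2 NMD transcripts with another splice site than the leading coding transcript Pcnp-202. Pcnp-205 had 17 of 104 and 24 of 128 reads and Pcnp-206 had 22 and 19. Pcnp-206 also keeps intron 1 (95 bases) of another coding transcript, Pcnp-201. Slc35b1-202 had 15 of 42 and 27 of 128 reads, Echdc2-209 4 of 21 and 35 of 113, Rbm7-204 15 of 74 and 16 of 71, and Yars2-203, of mitochondrial tyrosyl-tRNA synthetase, 13 of 53 and 17 of 76. None of these 4 shares passed the test.

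The stretches of coding chains need their own account, since their junctions do not set them apart. For each, the reads of every shorter and longer stretch of the same chain were counted. Cox4i1 encodes a subunit of cytochrome c oxidase. Cox4i1-204, the last 2 of 4 introns, had 453 of 881 reads (51.4%) and 723 of 1568 (46.1%). The chain of the last 3 introns had 14 and 21 reads, that of the last intron 2 and 11, and the full chain 384 and 748. Reads thus peaked at 2 introns and at the full chain in both libraries, with few between.

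Rpl5 and Stau1 showed the same gap. Rpl5-204, the last 2 of 7 introns in the gene of a ribosomal protein that binds 5S rRNA, had 195 of 269 reads (72.5%) and 88 of 173 (50.9%). The chains of the last 3 and last 6 introns had 2 and 2 and 4 and 2 reads, those between had 0, and the full chain had 63 and 63. Stau1-209, the last 3 of 11 introns in the gene of a double-stranded RNA-binding protein, had 47 of 97 and 32 of 73. The full chain of its host Stau1-202 had 26 and 15, and each other stretch had at most 2 reads in a library. Fxyd1-213, of a regulator of the sodium pump, had 19 of 60 and 129 of 279, beside 16 and 54 for the full chain of 7 introns.

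In Sparc and Tkt nearly all lengths had reads, with a peak at the member in 1 library each. Sparc encodes a secreted matrix protein, and Sparc-205, the last 4 of 9 introns, had 497 of 2482 reads (20.0%) in replicate 1 and 19 of 1110 (1.71%) in replicate 2. The stretch of 3 introns had 66 reads in replicate 1 and 12 in replicate 2. The unannotated stretches of 5 and 6 introns had 111 and 147 reads in replicate 1 and 59 and 42 in replicate 2. The full chain had 1086 and 624. Tkt-208, the last 7 of 13 introns of transketolase, had 4 of 231 and 89 of 1685. The stretch of 6 had 4 and 13 reads, that of 8 had 1 and 10, and that of 9 had 7 and 23. The Tkt gene had 231 and 1685 reads, in the direction of the hepatocyte markers, whose part in the result was not tested. Every stretch had at least 1 read in replicate 2 in both genes.

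**Figure D4:**
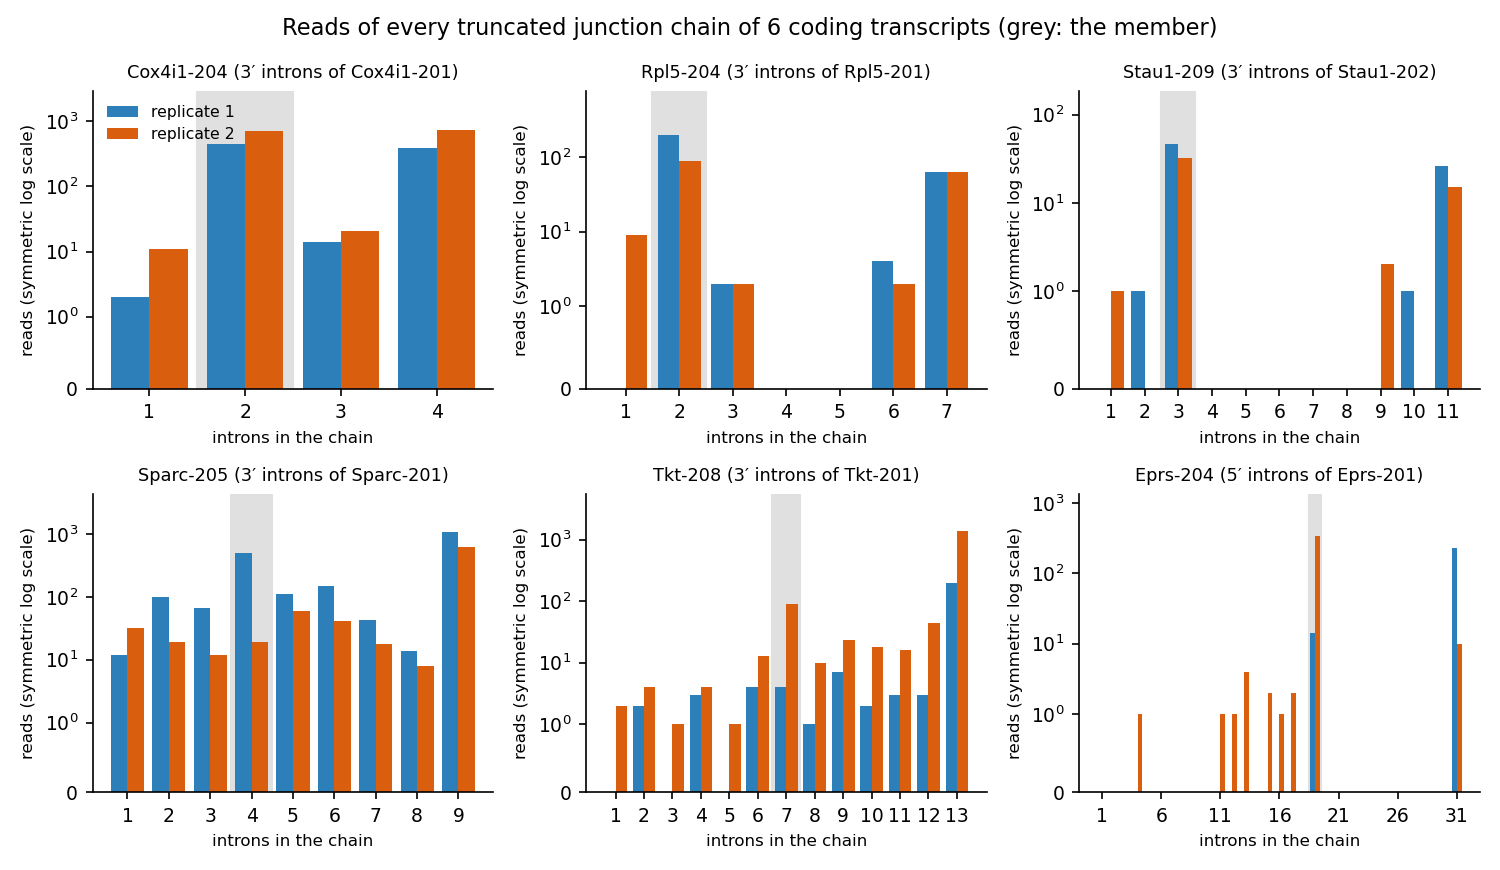
Reads (vertical axis, symmetric log scale that starts at 0) of each stretch of the junction chain of 6 coding transcripts, by the number of introns in the stretch counted from the 3′ end (from the 5′ end for Eprs); blue and orange bars are replicates 1 and 2 and grey marks the member. Cox4i1, Rpl5, Stau1 and Eprs have reads at the member and the full chain with few between, and Sparc and Tkt have reads at nearly all lengths.

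Eprs stood apart between the libraries. It encodes the tRNA synthetase for glutamate and proline, and Eprs-204 holds the first 19 of 31 introns and a last exon that runs over intron 20. It had 14 of 280 reads (5%, 2.76 to 8.25%) in replicate 1 and 333 of 393 (84.7%, 80.8 to 88.1%) in replicate 2. The full chain of Eprs-201 had 81.1% and 2.54% of the gene's reads, so the order of the 2 transcripts was opposite in the libraries. No stretch of 20 to 30 introns counted from the 5′ end had a read in either library. The difference was 79.7 percentage points (Fisher's exact test, adjusted p = 3.22e-103).

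Shares were compared between the libraries in 7009 known transcripts, of which 1.94% were called higher in replicate 2 and 8.93% lower, at a Benjamini-Hochberg adjusted p under 0.05. Of 222 retained-intron transcripts tested, 26 were higher in replicate 2 and 8 lower, which is 11.7% and 3.60%. Of 74 NMD transcripts, 0 were higher, also at an unadjusted p under 0.05, and 3 were lower (4.05%). The median difference was 0.465 percentage points for retained-intron, -1.09 for NMD and -2.64 for all 7009 transcripts. With ISM and genomic reads left out of the gene's reads, the median over all became 0.0252, with 1.80% of 6057 transcripts higher and 1.58% lower, and 24 of 206 retained-intron transcripts were higher and 3 lower. With known models alone, 2.26% of 4152 were higher and 2.05% lower, and of 199 retained-intron transcripts 20 and 3. Across the 222 and 74 members, shares in the libraries had a Pearson r of 0.673 and 0.862, a description over transcripts that are not replicates.

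The retained-intron transcripts called higher in replicate 2 were mostly of 2 kinds. Of 36 members at the 5′ end of a coding chain, 11 were higher and 0 lower, and at an unadjusted p under 0.05 it was 15 and 0. Except for Eprs-204 with 14 reads, the 11 had 0 or 1 read in replicate 1. The read minimum was set over both libraries, so these members entered the test through replicate 2, the deeper library. The part of this selection in the count was not tested. Of 38 single-exon members 6 were higher and 0 lower, while 3′ stretches had 5 higher and 6 lower of 96. The 5′ kind includes Eprs-204, Scarb1-209, 2 transcripts of Eif2s2, Metap2-209, Ddx24-204, Tbc1d4-206 and Etnk1-202. Of the authors' ISM reads, those of 5′ stretches were 8.44% in replicate 1 and 13.2% in replicate 2, and their part in the result was not tested. None of the 11 has AATAAA or ATTAAA in its last 50 annotated bases, on the transcript strand. Over all 902 members of this kind 22.9% have one of the 2, over 3′ stretches 37.8%, and over the 4122 annotated 5′ stretches without a read 16.3%.

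The last 40 annotated bases of 3 of these 5′ members are given because the search for the 2 hexamers covers them. In Eprs-204 the stretch runs from the end of intron 20 into the next coding exon. They lie at chr1:185410160-185410199 (Eprs-204, plus strand), chr14:101462572-101462611 (Tbc1d4-206, minus strand) and chr5:125283355-125283394 (Scarb1-209, minus strand). Capitals would mark AATAAA or ATTAAA, and there are none.
Eprs-204: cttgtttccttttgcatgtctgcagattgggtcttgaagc
Tbc1d4-206: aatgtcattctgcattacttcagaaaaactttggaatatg
Scarb1-209: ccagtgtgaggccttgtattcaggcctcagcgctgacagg
Tbc1d4 encodes a Rab regulator of glucose transporter traffic, and Tbc1d4-206 had 0 of 49 and 17 of 49 reads (adjusted p = 9.44e-05). Etnk1-202, of ethanolamine kinase, had 0 of 31 and 13 of 38 (adjusted p = 0.00491). Neither could be tested with ISM and genomic reads left out.

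Atf4-203 was the other large difference. Atf4 encodes a transcription factor of the stress response, and Atf4-203 is a single exon that runs over both introns (521 and 112 bases). How many reads of Atf4-203 cover the introns is not known here, as it has no junction. It had 2 of 66 reads (3.03%) and 49 of 100 (49.0%), while Atf4-201 had 59 and 32 (adjusted p for the share of the member = 1.01e-09). Gm49708-201, in a gene without coding transcript, had 0 of 36 and 11 of 45 reads (adjusted p = 0.0122, or 0.0650 without ISM and genomic reads). In the other direction, with differences of replicate 2 minus replicate 1, Sparc-205 was at -18.3 percentage points (adjusted p = 7.49e-59), Rpl5-204 at -21.6 (adjusted p = 1.50e-04) and Rpl10a-206 at -11.2 (21 of 129 and 13 of 256 reads, adjusted p = 0.00750). Rex1bd-207 had 20 of 44 and 22 of 101 (adjusted p = 0.0493, or 0.139 with known models alone). Dcaf11-213 and Dcaf11-216, both NMD, were lower too, with 10 and 12 of 183 reads in replicate 1 and 4 and 3 of 418 in replicate 2 (adjusted p = 0.0202 and 0.00187, or 0.0548 and 0.00571 without ISM and genomic reads).

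**Figure D5:**
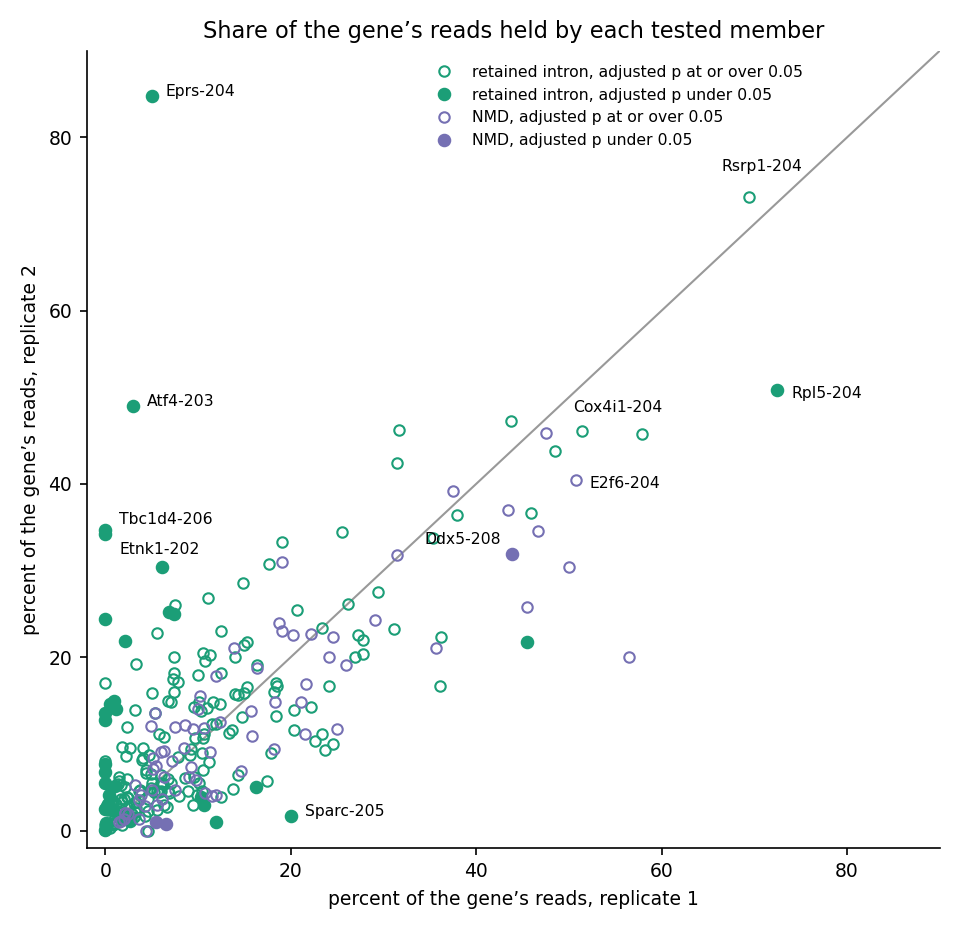
Percent of the gene's reads in replicate 1 (horizontal axis) and replicate 2 (vertical axis) for the 222 retained-intron (green) and 74 NMD (purple) transcripts tested; filled points have an adjusted p under 0.05 and the grey line marks equal shares. Eprs-204 and Atf4-203 lie far above the line, Rpl5-204, Ddx5-208 and Sparc-205 below it, and Rsrp1-204 close to it.

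Levels in CPM were compared in 10480 known transcripts, of which 10.8% were called higher in replicate 2 and 27.3% lower, with a median log2 ratio of replicate 2 to replicate 1 of -0.40. Of 250 retained-intron transcripts 40 were higher and 21 lower, and of 80 NMD transcripts 2 and 12. Effective library sizes of TMM moved the median over all to -0.05 and DESeq2's size factors to 0.01. Over all transcripts 15.9% were then higher and 16.4% lower under TMM, and 17.6% and 14.9% under DESeq2. Under them retained-intron transcripts had 51 higher and 11 lower, and 58 and 10, and NMD transcripts 3 and 6 under both. Cyp2c70-202, from the gene of a liver P450 that acts on bile acids, had 0 reads of the gene's 1 in replicate 1 and 136 of 851 in replicate 2. It moved with the hepatocyte markers given above, and their part in the result was not tested.

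The gene lists differed in how much of their RNA was in members. Among 62 splicing regulators, all detected, NMD transcripts held 541 of 7694 reads (7.03%) in replicate 1 and 439 of 9397 (4.67%) in replicate 2. Ddx5-208 gave 465 and 353 of these reads. Retained-intron transcripts held 1.61% and 2.18% of the list's reads. Over all genes the NMD share was 0.295% and 0.202%. In genes with an annotated NMD transcript it was 1.09% and 0.776%, and 47 of the 62 have one. In genes with an annotated retained-intron transcript, the retained-intron share was 1.26% and 1.38%, and 53 of the 62 have one. Members had reads in 21 of the 62 genes for NMD and 37 for retained introns. Of the 5749 genes compared above, 1782 have an annotated NMD transcript, and NMD transcripts had reads in 448 of them. For retained introns it was 1618 of 3737. The 5749 genes were chosen by a read minimum and the list was not, and the difference was not tested. Srsf7-207, from the gene of an SR protein, keeps intron 3 (874 bases) and had 13 of 85 reads (15.3%) and 18 of 109 (16.5%). The tested members of the list were 10 retained-intron transcripts, 1 higher in replicate 2 and 0 lower, and 6 NMD transcripts, 0 higher and Ddx5-208 lower.

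Genes of decay and of stress had retained-intron reads but no NMD reads. Few could have NMD reads, as only 4 genes of the decay list and 3 of the stress list have an annotated NMD transcript. An annotated retained-intron transcript is present in 12 and 13 of them. In 18 detected NMD and exon junction factors, retained-intron transcripts held 3 of 704 reads (0.426%) and 20 of 928 (2.16%), against 0.809% and 0.815% over all genes, and NMD transcripts 0 reads, which allows up to 3. Rnps1-207, of a protein bound at exon junctions, had 1 of 30 and 10 of 52 reads, Smg5-203 0 of 3 and 4 of 46, and Upf3a-202 1 of 48 and 3 of 57. In 18 detected stress genes known as NMD targets, NMD transcripts had 0 reads and retained-intron transcripts 16 of 1710 (0.936%) and 70 of 2430 (2.88%), the latter mostly Atf4-203. Mat2a-207, from the gene that makes S-adenosylmethionine, had 1 of 366 and 5 of 181, and Oaz1-206, of antizyme, 0 of 870 and 5 of 1369. All known Oaz1 models together had 0 and 5 reads, so no coding Oaz1 transcript was among the known models with reads.

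The steroid and chromaffin genes that define the gland had only a small share of their reads in members. This was not particular to them, as the hepatocyte and muscle lists below had a small share or no member reads. Over all genes the retained-intron share was 0.809% and 0.815% and the NMD share 0.295% and 0.202%. In 42 genes of steroidogenesis and cholesterol supply, retained-intron transcripts held 26 of 59619 reads (0.0436%) and 71 of 62192 (0.114%), and NMD transcripts 15 and 4 reads, although 26 and 7 of these genes have an annotated member. These reads came from 18 retained-intron members in 13 genes and 2 NMD members in 1 gene. Scarb1-209, of the receptor that takes up HDL cholesterol, had 0 of 1554 and 28 of 1154 reads (adjusted p = 2.93e-09). Cyp11a1-204 keeps intron 3 (899 bases) of the enzyme that cuts the cholesterol side chain, and had 1 of 14903 and 10 of 10879 reads (adjusted p = 0.0156). Mrap-204, an NMD transcript of the ACTH receptor's partner, had 10 of 276 and 2 of 148. In 29 detected chromaffin genes retained-intron transcripts held 2 of 10759 and 4 of 11652 reads, in Gata2, Pam and 1 other gene, and NMD transcripts 0, which allows up to 3. Of the chromaffin list, 11 genes have an annotated retained-intron transcript and 4 an NMD transcript.

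In cytosolic ribosomal protein genes, retained-intron transcripts had reads in 43 of 82 detected genes, and 64 genes of the list have an annotated one. Over the 5749 genes with 20 reads or more in both libraries, it was 1618 of the 3737 with an annotated one. In the ribosomal list, retained-intron transcripts held 320 of 9220 reads (3.47%) and 315 of 17068 (1.85%), and NMD transcripts 9 and 10 reads. Rpl5-204 gave 195 and 88 of the retained-intron reads. In all genes with an annotated retained-intron transcript the share was 1.26% and 1.38%. Ribosomal protein genes have many processed copies in the genome. The sources used here do not say how reads with several matches were treated, so the values of these genes are uncertain, as are those of Rbmx. In 20 hepatocyte genes retained-intron transcripts held 0 of 397 reads in replicate 1 and 16 of 115265 in replicate 2 (Trf-209 with 12, Itih4-205 with 3 and Trf-202 with 1). In 15 detected skeletal muscle genes no member had a read, among 2544 and 128. NMD transcripts had 0 reads in the hepatocyte list, where 2 genes have an annotated one, and no gene of the muscle list has one. The hepatocyte and muscle values move with the markers given above, and their part in the result was not tested.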

How the data were processed

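Adrenal gland RNA of 1 group was measured in 2 libraries. The authors deposited raw read counts per transcript model for each library and an annotation file. Coordinates are mm10 and transcripts GENCODE M21, per the file headers; attribute names are TALON's, and no aligner is named in the sources used here. Spike-in reads (11058 and 17139) and reads outside annotated genes were left out. Members and gene lists were chosen with earlier results of these data known.

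Junction chains, kept introns, frames and sequences were taken from GENCODE M21 (no genome sequence was used, so letters of introns that no transcript keeps are not analysed here). Shares and levels were compared by two-sided Fisher's exact test over all known transcripts that had 10 reads or more over the libraries (for shares, also 20 gene reads or more in each of them), Benjamini-Hochberg adjusted, with scipy 1.17.1, pandas 2.3.3, edgeR 4.0.16 (TMM) and DESeq2 1.42.0 (size factors). The tests were checked on simulated reads with counting error only, so further spread between libraries was not part of that check. Log2 ratios used a prior of 0.5 reads. The 8 lists were splicing regulators, NMD and exon junction factors, stress genes known as NMD targets, steroidogenesis and cholesterol supply, chromaffin, hepatocyte, skeletal muscle and cytosolic ribosomal protein genes. Named members are the 12 of each type with the most reads, those leading their gene in both libraries, the 8 of each type with the highest mean share in genes of 50 reads or more per library, the 5 with the largest share difference in each direction, and the 3 with the most reads per list. Others were chosen after their values were seen. One member that this rule names is not reported here.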

Additional observations from a re-analysis of the deposited data

How the results depend on the processing

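No paired analysis was possible because there is 1 group. Members in both libraries numbered 450 retained-intron and 171 NMD at 2 or more reads and 127 and 49 at 5 or more, and 1702 to 2484 and 517 to 564 in single libraries. The mean retained-intron share of gene reads was 1.06% of known reads, 1.32% in genes with an annotated member, 0.697% for multi-exon members, 0.912% without genes over 10-fold different and, chosen after seeing the data, 0.191% for members whose junctions differ from coding ones. The mean NMD share became 0.325% of known reads and 0.932% in genes with an annotated member. Genes led by a member numbered 7 at 50 reads, 38 when known models alone compete, 2 at a majority of reads, 24 to 31 in single libraries and 10 by members whose junctions differ, also added later. At 20 reads of the transcript, 14 of 86 retained-intron shares were higher in replicate 2 and 1 NMD share lower. Over all 5991 known transcripts tested so, 1.95% were higher and 9.98% lower. Retained-intron shares lower numbered 3 with known models alone and 3 without ISM and genomic reads. Of the 34 retained-intron shares called, 21 and 24 were called there too. At 20 reads, 19 retained-intron levels were higher and 4 NMD levels lower, while of all 7807 known transcripts tested so 12.6% were higher and 31.9% lower. TMM gave 11 retained-intron and 6 NMD levels lower, DESeq2 10 and 6. No member count changed direction, but the split over all known transcripts did. Without ISM and genomic reads it went from 136 shares higher and 626 lower to 109 and 96, and under DESeq2's size factors from 1133 levels higher and 2861 lower to 1847 and 1562. For members whose junctions differ, the mean NMD share (0.242%) was above the retained-intron one. With known models alone, the mean share of named members could not be computed where a library had no such reads. Members under 10 reads over the libraries were not tested, so their absence from a library is not given as a difference.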

Other observations

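Small RNA genes lie in some of the kept introns. Of the 1613 introns kept by retained-intron members with reads, 26 (1.61%) hold an annotated small RNA gene, against 55 of 7425 (0.741%) kept by annotated transcripts without reads. Among introns kept by members with 10 or more reads it was 1 of 247 (0.405%). These shares are a description with no test. Stx5a-209, a single exon, runs over an intron of 155 bases with Mir6992 and had 5 of 102 and 7 of 108 reads. Skiv2l-211 keeps an intron of 67 bases with Mir6970 and had 3 of 89 and 4 of 131. Nop56-218, from the gene of a box C/D snoRNP core protein, keeps introns with 2 such genes and had 1 read in each library. The host introns of snoRNAs in Rps12, Rpl27a, Rpl13, Rpl12 and Rack1 were kept in members with 0 to 3 reads per library. Intron 11 of Ddx5, kept in the NMD transcript Ddx5-208, holds Gm25994.

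Some members led their gene in 1 library alone, mostly in genes with few reads. Among NMD transcripts, Cbarp-212 had 26 of 52 reads in replicate 1 and 7 of 23 in replicate 2, Tor1aip1-206 13 of 23 and 4 of 20, and Meaf6-208 10 of 22 and 8 of 31. None of these 3 shares passed Fisher's exact test between the libraries. In replicate 2 alone, Hs6st1-202, a single exon in the gene of a heparan sulfate sulfotransferase, led, with 21 of 48 reads in replicate 1 and 17 of 36 in replicate 2. Slc25a22-221, of a mitochondrial glutamate carrier, led there with 27 of 107 reads and had 5 of 73 in replicate 1 (adjusted p = 0.0171, or 0.0506 with known models alone). In 2 further splicing genes, chosen after their values were seen, a retained-intron transcript had a higher share in replicate 2 by the same test. Arglu1-204 had 6 of 81 and 26 of 104 reads (adjusted p = 0.0197) and Sf3b1-203, of a U2 snRNP protein, 1 of 102 and 21 of 140 (adjusted p = 0.00148).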
